A study of Mus musculus with 22 samples.

Results

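Gene expression in the ear of wild-type (WT) C57BL/6 mice was compared between 2 weeks and 10 weeks after birth by RNA sequencing (single-end reads of 50 bases from poly(A) RNA). The 7 libraries were chosen by their titles alone, 4 of 2 weeks and 3 of 10 weeks, from 22 in the series. No libraries of 8 weeks and none of mice labelled as lacking Socs3 under keratin 5 entered the comparison. Each library was made from total RNA of an ear specimen, an unseparated tissue of epidermis, hair follicles, dermis, cartilage, muscle and blood. The labels name the source as keratinocytes, yet the levels of other tissues were high: at 2 weeks Col3a1 of the dermis averaged 4673 FPKM, Col2a1 of cartilage 163 and Acta1 of muscle 275, beside 2269 for Krt5 and 1648 for Krt14 of basal keratinocytes. Matn1, another cartilage gene, was near 0 at both ages, with a mean of 0 FPKM at 2 weeks and 0.0342 at 10 weeks. Values are FPKM, the authors' deposited unit, a count of fragments divided by transcript length and by library size. Whether each library is a different mouse is not stated, and the p-values below cover only the scatter among these 7 libraries, which may be technical. In a bulk specimen, fewer cells of a type and less RNA per cell cannot be told apart.

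While the mouse ear grows after birth, the follicles of the first coat build hair in their growth phase (anagen) and then pass into rest (telogen), when the matrix cells that make the shaft are gone. Fibroblasts lay down the collagen and elastin of the dermis early and slow down later. The ear muscles replace developmental myosins with adult ones, and a set of imprinted genes that drive fetal and early growth is switched down in many organs after birth.

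The files list 21110 genes, of which 13447 reached 1 FPKM in 3 or more libraries. These were tested with limma on log2(FPKM + 1). All changes below are 10 weeks minus 2 weeks on that scale, which understates the change of weakly expressed genes, and adjusted p-values are those of limma with Benjamini-Hochberg adjustment over all genes tested. As deposited, 9042 genes (67.2%) were called at an adjusted p under 0.05, 2304 higher (17.1%) and 6738 lower (50.1%) at 10 weeks, so 25.5% of the calls were higher. The median change of all genes tested was -0.37. The second scale divides each library by its median ratio to the geometric mean of all libraries, and there the median change was 0.00. On it 8763 genes (65.2%) were called, 4349 higher (32.3%) and 4414 lower (32.8%), and 49.6% of the calls were higher. A gene is said here to have risen or fallen when it was called in the same direction on both scales. That held for 2304 rises (17.1% of genes tested) and 4414 falls (32.8%), and these shares are the background for the counts of gene groups given below. They are the 2304 rises as deposited and the 4414 scaled falls, so each direction was decided by 1 scale alone. For the largest changes and list members picked by the naming rule, no overlap of libraries between the ages was a condition of being named. Statements below that the ages were apart thus describe the values of these genes and are no further support.

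**Figure D1:**
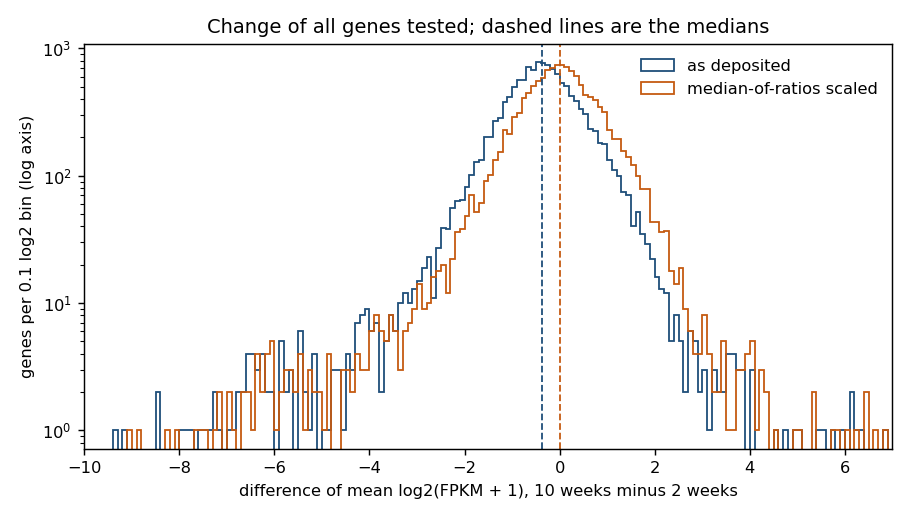
Difference of mean log2(FPKM + 1) between 10 and 2 weeks (horizontal axis) for the 13447 genes tested, counted in bins of 0.1 (vertical log axis), as deposited and after median-of-ratios scaling. The dashed median lies at -0.37 as deposited and at 0.00 scaled, and the long arm on the left reaches below -9.

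Libraries of the same age were alike at 2 weeks (r = 0.973 to 0.982 across genes) and less so at 10 weeks (0.949 to 0.968), and between ages r was 0.798 to 0.861. Several measures of library make-up moved with age. Ribosomal protein genes took 11.3% to 11.7% of all FPKM at 2 weeks and 21.3% to 28.8% at 10 weeks. Olfactory and vomeronasal receptor genes, which skin is not known to use, were above 0 for 3.26% to 5.10% of 1196 genes at 2 weeks and for 34.9% to 74.2% at 10 weeks, with mean levels of 0.00471 to 0.00521 and 0.0706 to 0.176 FPKM. Short transcripts changed differently from long ones: the median change was -0.15 for the quartile of genes with the shortest transcripts, then -0.22 and -0.39, and -0.66 for the longest. With the level of the receptor genes subtracted from each library, 9103 genes were called in place of 9042, and each of 132 named genes kept its direction and its side of the threshold as deposited. The level taken off was at most 0.176 FPKM, beside the 1 FPKM needed for testing, so it could hardly move a call. The part of whatever raised the receptor genes was therefore not tested. Values with the length trend removed are given below for some results only, and the part of the ribosomal share was not tested. The Y-linked gene Eif2s3y stood at 36.0 FPKM in replicate 4 of 2 weeks and at 0 to 1.85 in the others, with Xist at 0.0204 FPKM in that library and at 12.2 to 30.4 elsewhere. The part of sex in the results was not tested.

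**Figure D2:**
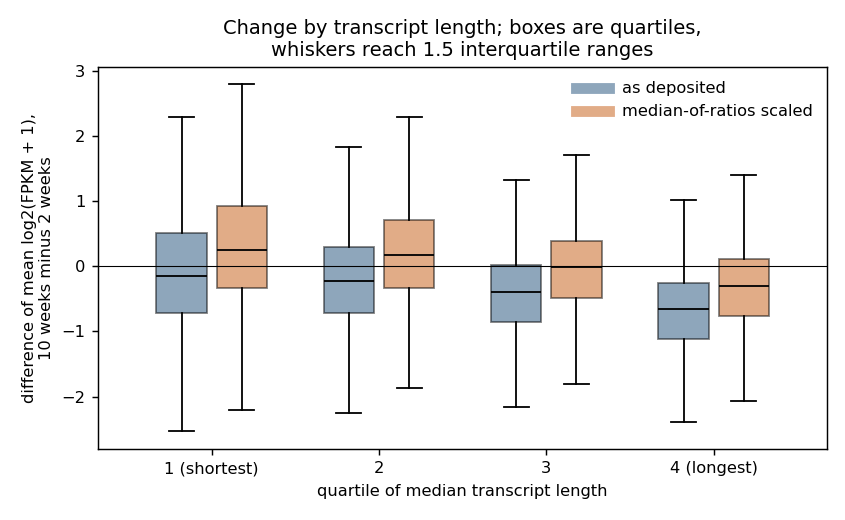
Difference of mean log2(FPKM + 1) between 10 and 2 weeks for genes split into quartiles of median transcript length (boxes are quartiles over genes, whiskers 1.5 interquartile ranges), as deposited and scaled. The medians as deposited step down from -0.15 for the shortest transcripts to -0.66 for the longest.

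Among genes the naming rule given below covers, the deepest falls were those of hair-making transcripts. Of the 12 largest falls among them, 9 belong to the list of hair shaft and inner root sheath genes and the other 3 are keratin-associated proteins of the Krtap16 group. Of 48 listed genes, 47 were tested, 45 fell and 1 rose (2 without replicate 3 of 10 weeks), with a median change of -6.10 as deposited and -5.74 scaled, against -0.37 and 0.00 for all genes tested. Krt71, a type II inner root sheath keratin, was at 784, 729.6, 1083 and 841 FPKM at 2 weeks and 0.462, 0.216 and 0.842 at 10 weeks. Krt27, a type I keratin of the same sheath, was at 497, 446, 665 and 534 FPKM at 2 weeks and 0.773, 0.283 and 0.690 at 10 weeks. Both were among the abundant transcripts in every library of 2 weeks and under 1 FPKM in every library of 10 weeks. Krt71 had a log2 change of -9.16 (SE 0.18, adjusted p = 8.1e-09) as deposited and -8.86 scaled, and Krt27 had changes of -8.40 as deposited and -8.10 scaled.

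The keratin-associated proteins crosslink keratin filaments in the shaft. Krtap8-1 was at 644, 762, 1001 and 728 FPKM at 2 weeks and 0, 0 and 0.655 at 10 weeks. Krtap8-1 had a log2 change of -9.35 (SE 0.21, adjusted p = 1.1e-08) as deposited and -9.09 scaled. Krtap7-1 was at 421, 489, 635 and 463 FPKM at 2 weeks and 0.291, 0.849 and 0.147 at 10 weeks, and Krtap11-1 at 121, 140.0, 185 and 135 FPKM at 2 weeks and 0.151, 0 and 0.382 at 10 weeks. The genes of this family are near-identical in places and their reads may be shared, so values of single members are uncertain. Tchh, the trichohyalin that fills the inner root sheath and medulla, was at 342, 264, 438 and 388 FPKM at 2 weeks and 0.745, 1.40 and 0.765 at 10 weeks, a log2 change of -7.50 as deposited and -7.18 scaled. The 2 week library of replicate 3 was the highest of its age for Krt71, Krtap8-1, Krtap7-1 and Tchh. Summed over the whole list, the hair genes stood at 7143, 7385, 10211 and 7766 FPKM at 2 weeks and 1136, 742 and 749 at 10 weeks, so the ages did not overlap. Lgals3, a galectin also made by macrophages and the interfollicular epidermis, was the member that rose, from a mean of 384 to 738 FPKM. It was at 982, 598 and 634 FPKM in the libraries of 10 weeks, most of what remained of the list's sum there. Gata3, a transcription factor of the inner root sheath and of T cells, did not pass on both scales (0.26 as deposited and 0.70 scaled). Krtap13 was not tested, at a mean of 0.0639 and 0.0598 FPKM.

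The bases just upstream of these genes are shown because many of them carry a feature that the choice of genes did not use. RefSeq promoters (build GRCm38.p6) were matched for 34 of the 45 genes that fell, 37 start sites in all, and the 250 bases before each start were searched on both strands for TATAAA, the core of the TATA box, which places the start of transcription. It was present at 24 of the 37 starts (64.9%), and at 12.4% of 32851 promoters of all genes. Krt84 (at base 45) and Hephl1 (at base 178) matched only on the reverse strand. Many of the genes are members of the same families, and keratin and envelope genes that did not fall were not compared. The windows of Krt71 (chr15:101743098-101743347, minus strand), Krtap8-1 (chr16:89487953-89488202, minus strand) and Krt27 (chr11:99351119-99351368, minus strand) read 5′ to 3′ towards the start as follows, with the match in capitals.
Krt71: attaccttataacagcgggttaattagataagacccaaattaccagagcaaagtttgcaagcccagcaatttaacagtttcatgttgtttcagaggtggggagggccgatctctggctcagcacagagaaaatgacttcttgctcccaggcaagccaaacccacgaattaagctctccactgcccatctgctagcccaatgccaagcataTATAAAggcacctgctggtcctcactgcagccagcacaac
Krtap8-1: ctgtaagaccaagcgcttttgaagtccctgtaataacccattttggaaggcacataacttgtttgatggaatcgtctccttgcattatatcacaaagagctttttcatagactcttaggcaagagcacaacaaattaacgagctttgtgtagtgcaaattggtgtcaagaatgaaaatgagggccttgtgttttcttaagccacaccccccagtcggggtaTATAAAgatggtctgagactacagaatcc
Krt27: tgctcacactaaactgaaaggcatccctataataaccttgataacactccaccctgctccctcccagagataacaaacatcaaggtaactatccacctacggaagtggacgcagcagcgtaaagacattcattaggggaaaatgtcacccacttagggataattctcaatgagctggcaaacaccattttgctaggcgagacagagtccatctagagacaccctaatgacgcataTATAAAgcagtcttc
The match begins at base 211, 222 and 236 of the 250, close before the start in all 3. A match is a description of letters and not a measured site, and Tchh, with a log2 change of -7.50 as deposited, has none in its window.

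Genes that direct the follicle fell with the structural genes. Of 25 tested regulators of the hair matrix and the dermal papilla, 19 fell and 1 rose (median -1.52 as deposited and -1.16 scaled). Hoxc13, the homeobox factor that switches on hair keratins, was at 22.1, 22.9, 28.0 and 24.6 FPKM at 2 weeks and 1.31, 1.30 and 1.02 at 10 weeks. Hoxc13 had a log2 change of -3.52 (SE 0.12, adjusted p = 1.1e-07) as deposited and -3.19 scaled. Foxn1, the factor missing in nude mice, was at 11.3, 10.2, 12.5 and 10.4 FPKM at 2 weeks and 0.897, 1.91 and 0.187 at 10 weeks (-2.69 as deposited and -2.43 scaled). Dlx3, a homeobox factor of the shaft, was at 43.0, 40.8, 52.1 and 44.4 FPKM at 2 weeks and 8.18, 5.77 and 3.66 at 10 weeks (-2.79 as deposited and -2.39 scaled). For these 3 factors no library of 10 weeks reached the lowest library of 2 weeks, as the naming rule required. Among signals and receptors, Wnt10b went from a mean of 6.53 to 0.782 FPKM (-2.14 as deposited and -1.90 scaled) and Bmp4 from 12.9 to 3.66 (-1.58 as deposited and -1.19 scaled). Vdr, the vitamin D receptor needed for hair cycling, went from 46.9 to 8.18 (-2.40 as deposited and -1.98 scaled). The member that rose was Corin, a serine protease of the dermal papilla, from 1.37 to 9.36 (2.07 as deposited and 2.41 scaled).

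Among 17 genes of follicle stem cells and the bulge, 10 fell (58.8%) and 2 rose (11.8%), beside 32.8% and 17.1% of all genes tested. Lhx2, a homeobox factor of follicle progenitors, was at 26.6, 28.9, 28.4 and 26.4 FPKM at 2 weeks and 3.67, 4.83 and 3.95 at 10 weeks (-2.48 as deposited and -2.08 scaled). Lgr5, a receptor that marks cycling stem cells, was at 12.04, 10.3, 12.9 and 13.0 FPKM at 2 weeks and 1.29, 2.11 and 1.62 at 10 weeks (-2.29 as deposited and -1.95 scaled), so the ages were apart for both. Wif1, a secreted inhibitor of Wnt signals, moved the other way and was at 44.4, 52.8, 45.4 and 38.4 FPKM at 2 weeks and 176, 273 and 234 at 10 weeks. Wif1 had a log2 change of 2.29 (SE 0.17, adjusted p = 9.2e-06) as deposited and 2.74 scaled. The other rise was Tcf4 (from 21.5 to 26.4 FPKM, 0.29 as deposited and 0.72 scaled). It was lost on 1 of the scales when any library other than replicate 3 of 10 weeks was left out. Krt15, a keratin of the bulge and basal layer, stood at 1284 ± 70.9 FPKM at 2 weeks and 1199 ± 307 at 10 weeks (mean ± SD, n = 4 and 3, as in all such values) and did not pass on both scales (-0.13 as deposited and 0.32 scaled). Cd34 did not pass on both scales either (-0.55 as deposited and -0.10 scaled).

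**Figure D3:**
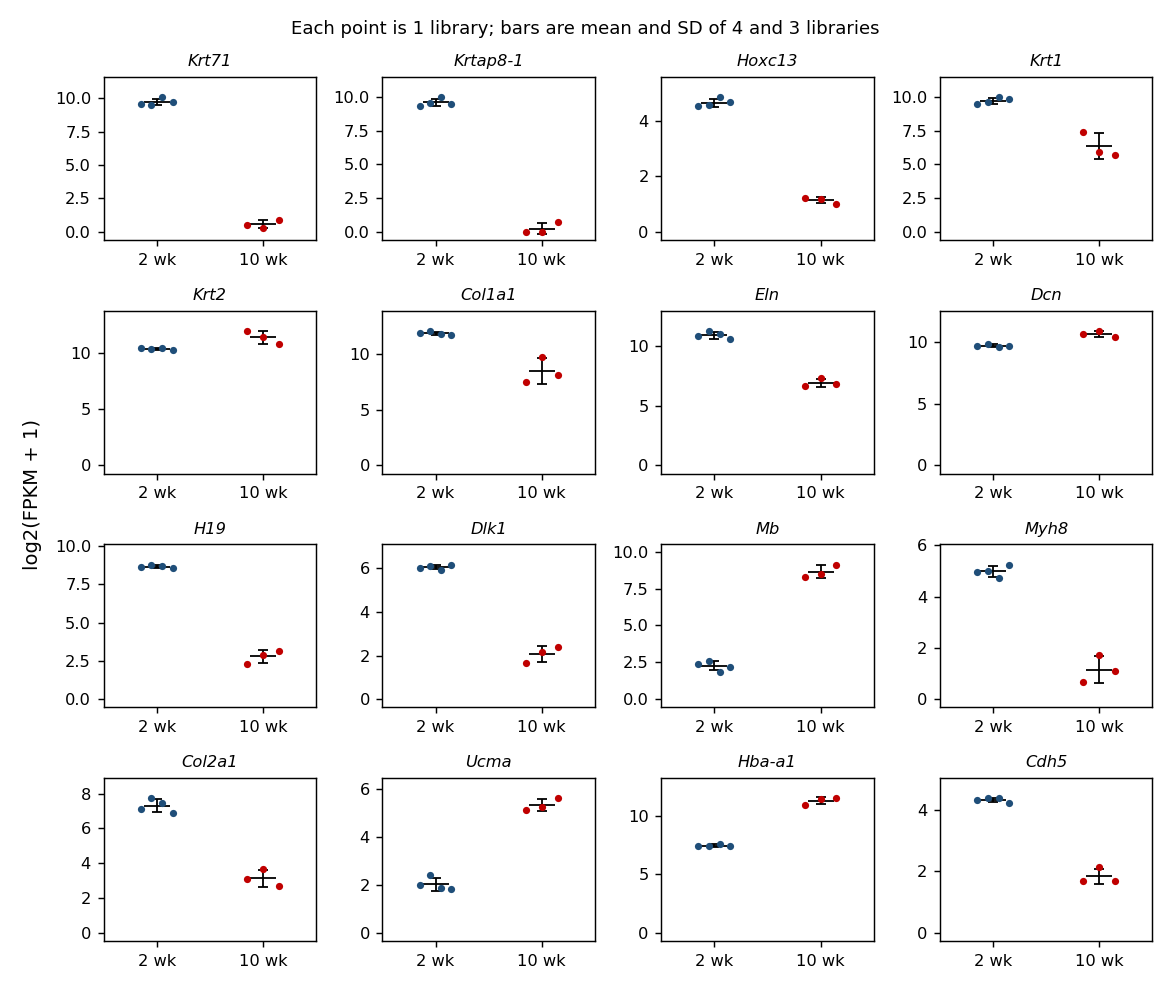
log2(FPKM + 1) of 16 genes (vertical axes, each panel on its own range from 0) in the 4 libraries of 2 weeks and the 3 of 10 weeks, with mean and SD. In every panel the points of the 2 ages are apart, with Krt71 and Krtap8-1 near 0 at 10 weeks and Mb, Ucma and Hba-a1 far higher at 10 weeks.

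In the surface epidermis the type II keratins of the upper layers moved in opposite directions. Krt1, the type II keratin that first appears above the basal layer, was at 723, 778, 1005 and 901 FPKM at 2 weeks and 172, 59.9 and 50.5 at 10 weeks. Krt1 had a log2 change of -3.37 (SE 0.37, adjusted p = 6.7e-05) as deposited and -2.92 scaled. Krt77, a related type II keratin, was at 112, 100.5, 125 and 124 FPKM at 2 weeks and 8.49, 20.4 and 7.54 at 10 weeks (-3.27 as deposited and -2.84 scaled). Krt2, the type II keratin of the late suprabasal layers, was at 1385, 1303, 1400.2 and 1222 FPKM at 2 weeks and 3952, 2672 and 1764 at 10 weeks instead. Krt2 had a log2 change of 0.999 (SE 0.26, adjusted p = 0.0075) as deposited and 1.45 scaled. Krt10, the type I partner of these keratins, did not pass on both scales (3031 ± 251 FPKM at 2 weeks and 3132 ± 1426 at 10 weeks, -0.06 as deposited and 0.39 scaled). So Krt1 was the lower and Krt2 the higher at 10 weeks with no overlap of libraries, beside a Krt10 level whose libraries overlapped between the ages.

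Of 24 tested genes of the spinous and granular layers, 5 rose (20.8%) and 9 fell (37.5%), shares near the 17.1% and 32.8% of all genes tested. Loricrin (Lor), the main protein of the cornified envelope, was at 618, 563, 759 and 710.2 FPKM at 2 weeks and 1741, 961 and 961 at 10 weeks, and its log2 change of 0.83 was 0.55 without replicate 1 of 10 weeks. Krtdap, a small protein of differentiating keratinocytes, went from 1649.6 to 4472 FPKM (1.35 as deposited and 1.81 scaled) and Sbsn from 689.9 to 1389 (0.97 as deposited and 1.42 scaled). Sprr1a, a small envelope precursor, was at 716, 722, 823 and 875 FPKM at 2 weeks and 172, 74.8 and 80.7 at 10 weeks and fell (-2.93 as deposited and -2.48 scaled), as did Casp14, a protease of the last step of cornification, from 36.5 to 10.4 (-1.90 as deposited and -1.49 scaled). The late cornified envelope genes, a cluster of small envelope proteins expressed at the end of differentiation, rose almost as a whole: 14 of 15 tested, with a median of 1.59 as deposited and 2.04 scaled. Lce1l was at 44.9, 45.9, 68.3 and 45.2 FPKM at 2 weeks and 565, 203 and 206 at 10 weeks (2.49 as deposited and 2.94 scaled) and Lce1g at 36.4, 35.7, 55.5 and 42.7 FPKM at 2 weeks and 478, 119.5 and 142 at 10 weeks (2.24 as deposited and 2.68 scaled). The sum of the list stood at 1276, 1339.5, 1776 and 1434 FPKM at 2 weeks and 8657, 3059 and 3342 at 10 weeks. Every library of 10 weeks was above every library of 2 weeks, with replicate 1 of 10 weeks standing far above the other two. Without that library the changes of Lce1a1 (0.91), Lce1c (0.78), Lce1e (1.01), Lce1i (1.03), Lce1k (1.12) and Lce3c (1.40) were smaller by over 1.5 times than 1.41, 1.26, 1.59, 1.59, 1.69 and 2.37, and all 14 were still called. These genes are near-identical copies and the authors' quantification may split their reads.

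In the basal layer the keratins did not pass on both scales and the anchoring proteins fell. Krt5 was at 2197, 2374, 2270.3 and 2233 FPKM at 2 weeks and 1459, 1712 and 1327 at 10 weeks, lower as deposited (-0.60, adjusted p = 0.0092) and not past the threshold scaled (-0.15, adjusted p = 0.51). Krt14 was at 1662, 1656, 1633 and 1642 FPKM at 2 weeks and 3329, 1699 and 1690.1 at 10 weeks and passed only scaled (0.36 as deposited and 0.82 scaled). Of the 12 basal genes 9 fell and none rose, and all 9 encode adhesion proteins of the basement membrane zone. Lama3, a laminin chain of that zone, was at 8.06, 6.56, 7.42 and 8.71 FPKM at 2 weeks and 1.35, 3.58 and 1.19 at 10 weeks (-1.59 as deposited and -1.27 scaled). Itgb4, the integrin of hemidesmosomes, was at 36.1, 36.5, 35.4 and 36.5 FPKM at 2 weeks and 12.02, 24.4 and 10.9 at 10 weeks (-1.23 as deposited and -0.80 scaled). Col17a1, the hemidesmosomal collagen, went from 215 to 101 FPKM (-1.16 as deposited and -0.70 scaled). With scaling and the length trend removed together, the change of Lama3 was -0.69 and that of Itgb4 -0.29, which no longer passed (adjusted p = 0.19).

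Most epidermal lipid enzymes did not pass on both scales: 2 of 24 rose, 2 fell, and the median was -0.28 as deposited and 0.07 scaled. The rises were Acer1, a ceramidase of the upper layers (35.9, 35.5, 40.4 and 35.7 FPKM at 2 weeks and 96.6, 65.3 and 60.7 at 10 weeks), and Fa2h, a fatty acid hydroxylase (from 91.1 to 139). The falls were Abca12, a lipid transporter of the barrier, and Cldn1, a tight junction protein. Both were lost when replicate 1, 3 or 4 of 2 weeks was left out, 1 fell without replicate 2 of 2 weeks or replicate 3 of 10 weeks, 4 fell without replicate 1 of 10 weeks and 5 without replicate 2. With scaling and the length trend removed together, neither Abca12 (-0.32, adjusted p = 0.22) nor Cldn1 (-0.06, adjusted p = 0.78) passed. The sebaceous gland list was split, with 7 rises (29.2%) and 8 falls (33.3%) among 24, beside 17.1% and 32.8% of all genes tested. Cyp2g1, a cytochrome P450, was at 149.8, 148, 149 and 124 FPKM at 2 weeks and 0.809, 0.987 and 0.335 at 10 weeks. Cyp2g1 had a log2 change of -6.41 (SE 0.15, adjusted p = 1.2e-08) as deposited and -6.12 scaled, and no library came near those of the other age. Scd3, a stearoyl-CoA desaturase of sebocytes, was at 21.99, 20.9, 20.8 and 20.5 FPKM at 2 weeks and 2.88, 5.09 and 1.89 at 10 weeks (-2.43 as deposited and -2.06 scaled). Fads2, a fatty acid desaturase, was at 12.9, 13.8, 12.2 and 9.78 FPKM at 2 weeks and 0.838, 5.10 and 1.08 at 10 weeks (-2.19 as deposited and -1.87 scaled). Scd1, the more abundant desaturase of skin, rose from 274 to 942 FPKM (1.77 as deposited and 2.22 scaled). Mgst1, a glutathione transferase, went from 92.4 to 293 (1.65 as deposited and 2.102 scaled). Desaturases of the same list thus went both ways.

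The connective tissue genes of the dermis were lower at 10 weeks. Of 29 genes of collagens and their processing, 22 fell and none rose (median -1.61 as deposited and -1.18 scaled). Col1a1, the main chain of type I collagen, was at 3932, 4435, 3614 and 3544 FPKM at 2 weeks and 180.3, 898 and 291 at 10 weeks. Col1a1 had a log2 change of -3.42 (SE 0.45, adjusted p = 1.9e-04) as deposited and -2.96 scaled. Col3a1, the chain of type III collagen, was at 4764, 4996, 4393 and 4541 FPKM at 2 weeks and 692, 1555 and 849 at 10 weeks (-2.26 as deposited and -1.81 scaled). Col5a1, which starts fibrils, was at 212, 220.0, 195 and 202 FPKM at 2 weeks and 24.0, 52.3 and 31.1 at 10 weeks (-2.57 as deposited and -2.13 scaled), and its partner Col5a3 at 44.1, 49.3, 40.7 and 39.9 FPKM at 2 weeks and 4.23, 9.996 and 5.54 at 10 weeks (-2.62 as deposited and -2.21 scaled). In all 4 genes replicate 2 was the highest library of 10 weeks and was still below every library of 2 weeks. Among the enzymes that modify and crosslink the chains, Lox, a lysyl oxidase, went from 106 to 20.4 (-2.46 as deposited and -2.02 scaled). Serpinh1, the collagen chaperone, went from 391 to 123 (-1.67 as deposited and -1.22 scaled). Of the 7 that did not fall, Pcolce2, a helper of the enzyme that trims procollagen, was the one with a positive change on both scales (0.17 as deposited and 0.61 scaled, not called as deposited).

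Elastic fibre genes fell too. Eln, which encodes elastin, was at 1778, 2433, 2045 and 1505 FPKM at 2 weeks and 97.3, 155 and 109 at 10 weeks. Eln had a log2 change of -4.01 (SE 0.22, adjusted p = 1.5e-06) as deposited and -3.55 scaled. Fbn2, the fibrillin of early microfibrils, was at 34.0, 34.0, 36.3 and 35.9 FPKM at 2 weeks and 2.98, 3.99 and 3.44 at 10 weeks (-3.02 as deposited and -2.62 scaled). Mfap4, a microfibril protein, was at 684, 734, 633 and 641 FPKM at 2 weeks and 68.6, 116 and 93.9 at 10 weeks (-2.88 as deposited and -2.42 scaled). Fbn1, the fibrillin of adult tissue, went from 49.2 to 13.7 FPKM (-1.79 as deposited and -1.36 scaled). In all, 20 of 28 genes of elastic fibres, proteoglycans and matrix glycoproteins fell and 3 rose. With scaling and the length trend removed together, 18 were called lower. The 3 rises were all small leucine-rich proteoglycans, which bind collagen fibrils. Dcn was at 840.1, 907, 782 and 824 FPKM at 2 weeks and 1591, 1899.9 and 1369 at 10 weeks (0.94 as deposited and 1.39 scaled). Fmod was at 36.3, 40.7, 31.8 and 30.7 FPKM at 2 weeks and 70.7, 123 and 96.8 at 10 weeks (1.42 as deposited and 1.87 scaled). Lum went from 317 to 489.9 (0.62 as deposited and 1.08 scaled). For Dcn and Fmod every library of 10 weeks was above those of 2 weeks. Bgn, a close relative of Dcn, was lower (839 to 387, -1.14 as deposited and -0.69 scaled), though this fall was lost on 1 scale without replicate 1, 2 or 3 of 2 weeks or replicate 1 of 10 weeks.

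Among 15 tested matrix proteases and inhibitors, 4 rose (26.7%) and 3 fell (20%), beside 17.1% and 32.8% of all genes tested. Mmp3, stromelysin 1, was at 26.3, 26.2, 18.9 and 18.4 FPKM at 2 weeks and 101, 99.9 and 106 at 10 weeks. Mmp3 had a log2 change of 2.16 (SE 0.15, adjusted p = 7.3e-06) as deposited and 2.60 scaled. Mmp11, a stromal protease of remodelling tissue, was at 28.1, 32.3, 30.3 and 30.1 FPKM at 2 weeks and 1.604, 3.78 and 2.01 at 10 weeks (-3.22 as deposited and -2.85 scaled). Mmp19 was at 9.42, 9.26, 8.35 and 7.87 FPKM at 2 weeks and 2.12, 2.28 and 1.76 at 10 weeks (-1.67 as deposited and -1.32 scaled). The ages were apart in all 3, as the naming rule required. Timp1 and Timp4, inhibitors of these proteases, rose from 19.5 to 39.9 and 4.41 to 14.6 FPKM.

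Of 20 tested cartilage genes, 5 rose and 7 fell, shares of 25.0% and 35.0% that lie near the 17.1% and 32.8% of all genes tested. The list's median was -0.24 as deposited and 0.10 scaled. Col2a1, the fibrillar collagen of cartilage, was at 141, 212, 179 and 119 FPKM at 2 weeks and 7.38, 11.7 and 5.42 at 10 weeks. Col2a1 had a log2 change of -4.18 (SE 0.26, adjusted p = 3.6e-06) as deposited and -3.76 scaled. Its partners Col11a1 and Col11a2 fell by 1.87 and 1.90 as deposited. Ucma, a small matrix protein of cartilage that carries Gla residues, was at 2.96, 4.27, 2.63 and 2.58 FPKM at 2 weeks and 34.3, 37.7 and 48.0 at 10 weeks. Ucma had a log2 change of 3.32 (SE 0.17, adjusted p = 1.3e-06) as deposited and 3.72 scaled. Comp, an extracellular protein of mature cartilage and tendon, was at 1.26, 1.16, 0.934 and 0.900 FPKM at 2 weeks and 15.9, 24.0 and 11.2 at 10 weeks (3.07 as deposited and 3.41 scaled). Cytl1, a secreted protein of chondrocytes, went from 296 to 1063 FPKM (1.82 as deposited and 2.27 scaled). Acan, the aggrecan core protein, did not pass on both scales (30.7 ± 4.27 FPKM at 2 weeks and 15.9 ± 4.69 at 10 weeks, -0.93 as deposited and -0.50 scaled), nor did Lect1, the chondromodulin gene (-0.15 as deposited and 0.30 scaled). The gene listed as 3110079O15Rik, placed with the cartilage genes, rose from 31.0 to 338 FPKM (3.26 as deposited and 3.71 scaled). Col2a1, Ucma and Comp were apart between the ages in all libraries, as the naming rule required.

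Some muscle genes of adult fibres were higher and several developmental ones lower. Mb, the myoglobin gene, had the largest rise among genes the naming rule covers and was at 4.32, 4.91, 2.63 and 3.58 FPKM at 2 weeks and 318, 365 and 559 at 10 weeks. Mb had a log2 change of 6.40 (SE 0.22, adjusted p = 1.0e-07) as deposited and 6.81 scaled. Tcap, the titin cap of the sarcomere, was at 7.34, 9.15, 6.63 and 6.67 FPKM at 2 weeks and 133, 188 and 274 at 10 weeks (4.51 as deposited and 4.94 scaled). Myl2, the slow and cardiac regulatory light chain, was listed at 0 in replicates 1 to 3 of 2 weeks, at 0.161 FPKM in replicate 4, and at 8.06, 47.0 and 11.3 at 10 weeks. Ckmt2, the mitochondrial creatine kinase of muscle, was at 1.28, 3.39, 1.39 and 1.45 FPKM at 2 weeks and 12.7, 21.7 and 18.2 at 10 weeks (2.71 as deposited and 3.08 scaled). In each of these 4 genes the lowest library of 10 weeks was above the highest of 2 weeks, as the naming rule required. Of 31 tested genes of adult muscle, 15 rose and 2 fell, or 5 fell when replicate 2 of 10 weeks was left out.

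Within the myosin heavy chains, Myh8, the perinatal chain, was at 30.0, 31.1, 25.3 and 36.9 FPKM at 2 weeks and 0.576, 2.29 and 1.13 at 10 weeks. Myh8 had a log2 change of -3.83 (SE 0.24, adjusted p = 3.7e-06) as deposited and -3.50 scaled. Myh3, the embryonic chain, was at 8.62, 9.41, 6.67 and 9.45 FPKM at 2 weeks and 1.83, 10.1 and 4.34 at 10 weeks and did not pass (-0.78 as deposited and -0.40 scaled, adjusted p = 0.098 as deposited), and its libraries overlapped. Myh1 and Myh2, chains of fast adult fibres, went from 21.99 to 51.6 (1.13 as deposited and 1.57 scaled) and 4.88 to 15.8 (1.44 as deposited and 1.84 scaled). Myh4, the chain of the fastest fibres, was at 28.8, 28.0, 21.0 and 22.3 FPKM at 2 weeks and 3.66, 11.2 and 3.20 at 10 weeks and fell (-2.06 as deposited and -1.66 scaled), as did Actn3, the alpha-actinin of fast fibres, from 5.69 to 0.673 FPKM (-2.04 as deposited and -1.79 scaled). Actc1, the cardiac actin of immature skeletal muscle, was at 17.8, 21.3, 17.7 and 16.9 FPKM at 2 weeks and 1.48, 1.37 and 2.16 at 10 weeks (-2.87 as deposited and -2.51 scaled). Myod1 and Myog, the factors that commit and differentiate myoblasts, fell from 2.44 to 0.329 and 5.34 to 1.89 FPKM. Of 13 tested genes of developing muscle 8 fell. The 1 rise, Tnnt2, the cardiac troponin T of early muscle (0.55 as deposited and 0.97 scaled), was 0.35 as deposited without replicate 3 of 10 weeks. It was lost without replicate 1 or 4 of 2 weeks or replicate 3 of 10 weeks, and 2 rose without replicate 1 of 10 weeks. General fibre genes did not pass on both scales: Acta1, skeletal actin, stood at 275 ± 53.9 FPKM at 2 weeks and 184 ± 70.8 at 10 weeks (-0.63 as deposited and -0.18 scaled) and Ckm, muscle creatine kinase, at 77.9 ± 17.1 FPKM at 2 weeks and 110.4 ± 34.2 at 10 weeks (0.48 as deposited and 0.93 scaled). The sum of the adult muscle list, 1246 to 1859.8 FPKM at 2 weeks and 2243 to 3866 at 10 weeks, was higher in every library of 10 weeks.

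Most of the tested imprinted genes of early growth fell. Of 20 tested, 13 fell and 1 rose (median -1.82 as deposited and -1.42 scaled). H19, a long RNA expressed from the maternal copy, was at 389, 440.3, 405 and 384 FPKM at 2 weeks and 4.03, 6.49 and 8.03 at 10 weeks. H19 had a log2 change of -5.86 (SE 0.18, adjusted p = 5.0e-08) as deposited and -5.44 scaled. Igf2, the growth factor that neighbours H19 and is expressed from the paternal copy, was at 155, 178, 156 and 150.5 FPKM at 2 weeks and 16.1, 21.98 and 21.7 at 10 weeks (-2.95 as deposited and -2.51 scaled). Dlk1, a paternally expressed membrane protein of immature cells, was at 63.1, 67.8, 60.0 and 70.9 FPKM at 2 weeks and 2.13, 3.53 and 4.26 at 10 weeks (-3.98 as deposited and -3.58 scaled). Rian, a maternally expressed RNA of the same domain, was at 80.9, 86.1, 82.8 and 76.5 FPKM at 2 weeks and 5.56, 8.12 and 4.72 at 10 weeks (-3.56 as deposited and -3.15 scaled). Every library of 10 weeks was far below every library of 2 weeks for these 4 genes. Meg3, also of that domain, went from 238 to 29.6 FPKM (-2.97 as deposited and -2.52 scaled), Peg3 from 8.71 to 0.749 (-2.54 as deposited and -2.29 scaled) and Plagl1, a factor of the imprinted network, from 29.3 to 6.81 (-1.96 as deposited and -1.55 scaled). Genes of both parental origins fell. The library kit does not mark strand, so reads of these genes and of overlapping antisense RNAs cannot be told apart. The 1 member that rose was Dcn, described with the dermis. Cdkn1c, an imprinted inhibitor of the cell cycle, did not pass on both scales (61.7 ± 5.28 FPKM at 2 weeks and 40.6 ± 11.2 at 10 weeks, -0.63 as deposited and -0.18 scaled), and neither did Ndn or Sgce.

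Most genes of the wider growth hormone and IGF axis did not pass on both scales. Of 13 tested, 3 fell (23.1%) and 1 rose (7.69%), both below the 32.8% and 17.1% of all genes tested. Without replicate 3 of 10 weeks 3 rose. Igfbp3, the main carrier of IGFs in blood, was at 155, 152, 142 and 140.0 FPKM at 2 weeks and 45.9, 65.9 and 27.8 at 10 weeks (-1.72 as deposited and -1.28 scaled). Igf1r, the receptor, was at 7.06, 5.92, 7.03 and 7.43 FPKM at 2 weeks and 2.88, 4.43 and 2.56 at 10 weeks (-0.89 as deposited and -0.53 scaled). Irs1, the adaptor below it, fell by 0.68 as deposited but was called higher with scaling and the length trend removed together (0.30, adjusted p = 0.012). With only the length trend removed Irs1 did not pass (-0.14, adjusted p = 0.35), so its direction depends on the processing. Igf1 itself stood at 16.1 ± 0.328 FPKM at 2 weeks and 18.6 ± 1.40 at 10 weeks and Ghr, the growth hormone receptor, at 17.3 ± 1.33 FPKM at 2 weeks and 17.8 ± 5.50 at 10 weeks, and neither passed on both scales.

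Further factors of early growth were lower, among them RNA-binding and chromatin proteins. Sox4, a factor of progenitor cells, was at 21.7, 19.2, 19.3 and 23.4 FPKM at 2 weeks and 0.988, 2.82 and 1.33 at 10 weeks. Sox4 had a log2 change of -3.07 (SE 0.21, adjusted p = 6.2e-06) as deposited and -2.73 scaled. Dnmt3a, which adds new DNA methylation, was at 13.6, 12.5, 13.0 and 13.1 FPKM at 2 weeks and 3.17, 4.52 and 2.45 at 10 weeks (-1.71 as deposited and -1.33 scaled). Dnmt1, which copies it, went from 21.1 to 7.27 FPKM (-1.43 as deposited and -1.01 scaled). Of 15 tested genes listed for DNA methylation and chromatin of early growth, 9 fell. Igf2bp3, which binds the Igf2 message in fetal tissue and was listed with the genes of developing muscle, was at 5.61, 4.94, 5.92 and 5.92 FPKM at 2 weeks and 0.249, 0.461 and 0.208 at 10 weeks (-2.34 as deposited and -2.12 scaled). The ages were apart for each of these 4.

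Cell cycle genes fell in a share close to the background. Of 42 tested, 15 fell and 2 rose, and the share that fell was 35.7% beside 32.8% of all genes tested. Ccnd1, cyclin D1, was at 40.0, 38.9, 42.9 and 38.0 FPKM at 2 weeks and 12.9, 16.5 and 10.7 at 10 weeks (-1.53 as deposited and -1.10 scaled). Plk1, a mitotic kinase, was at 9.41, 8.81, 9.23 and 7.83 FPKM at 2 weeks and 2.61, 3.29 and 1.90 at 10 weeks (-1.46 as deposited and -1.10 scaled). Mki67, the proliferation marker, was at 12.5, 10.96, 11.6 and 11.7 FPKM at 2 weeks and 9.53, 6.15 and 5.65 at 10 weeks. It passed as deposited (-0.67, adjusted p = 0.0055) and not scaled (-0.27, adjusted p = 0.17). Tyms, the thymidylate synthase of DNA synthesis, moved the other way and was at 6.06, 6.5, 6.14 and 5.81 FPKM at 2 weeks and 32.9, 34.4 and 50.8 at 10 weeks. Tyms had a log2 change of 2.48 (SE 0.16, adjusted p = 3.9e-06) as deposited and 2.89 scaled. The second rise was Birc5, survivin, from 19.8 to 33.0 FPKM (0.67 as deposited and 1.11 scaled), which stood at 0.45 as deposited without replicate 1 of 10 weeks.

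**Figure D4:**
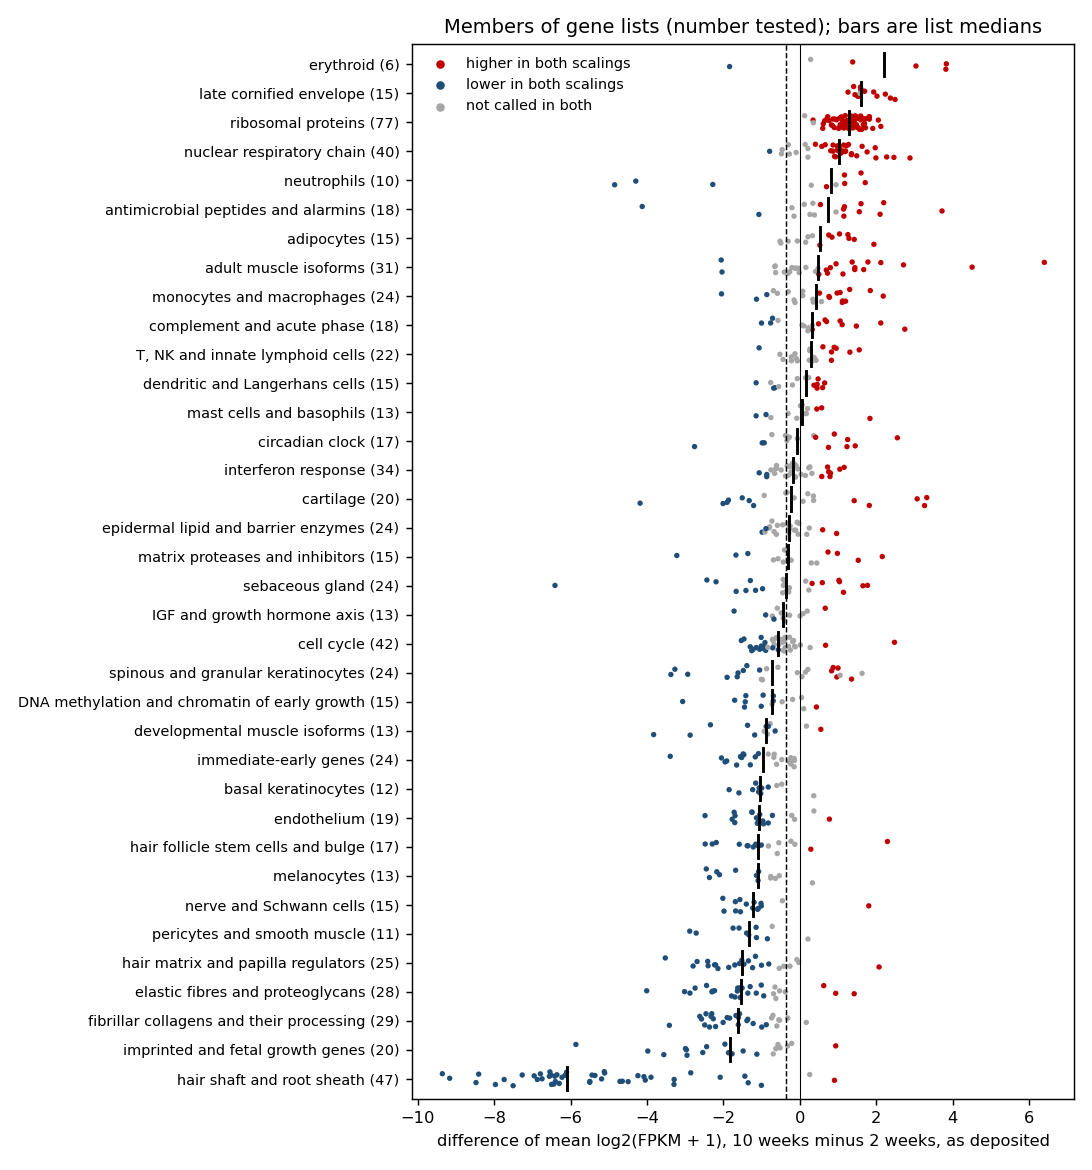
Difference of mean log2(FPKM + 1) between 10 and 2 weeks as deposited (horizontal axis) for each tested member of the gene lists with at least 6 tested members, with list medians as bars, 0 as a solid line and the median of all genes tested (-0.37) dashed. The hair shaft list lies far to the left (median -6.10) and the late cornified envelope and ribosomal protein lists to the right (1.59 and 1.29).

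Most vessel, nerve and pigment cell genes tested were lower at 10 weeks. Of 19 endothelial genes 15 fell, and 12 were called lower with scaling and the length trend removed together. Cdh5, the cadherin of endothelial junctions, was at 18.9, 19.6, 19.5 and 17.6 FPKM at 2 weeks and 2.21, 3.37 and 2.22 at 10 weeks. Cdh5 had a log2 change of -2.48 (SE 0.14, adjusted p = 1.8e-06) as deposited and -2.11 scaled. Kdr, a VEGF receptor, was at 5.44, 4.21, 4.51 and 5.72 FPKM at 2 weeks and 0.589, 1.19 and 0.514 at 10 weeks (-1.77 as deposited and -1.51 scaled). Eng, a TGF-beta coreceptor, was at 28.9, 32.1, 29.2 and 26.7 FPKM at 2 weeks and 6.58, 9.84 and 8.33 at 10 weeks (-1.72 as deposited and -1.30 scaled). The list's 1 rise was Cldn5, a tight junction protein (15.4 to 27.3 FPKM), and 2 rose without replicate 1 of 2 weeks or replicate 2 of 10 weeks. Of 11 genes of pericytes and smooth muscle 9 fell, with Rgs5 at 23.4, 16.1, 20.4 and 22.6 FPKM at 2 weeks and 1.32, 3.39 and 1.42 at 10 weeks and Notch3 at 21.3, 20.2, 21.6 and 19.7 FPKM at 2 weeks and 2.099, 3.58 and 1.55 at 10 weeks. The ages did not overlap in any of these 5 genes, as the naming rule required.

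In Schwann cells, which wrap nerve fibres, Prx, which stabilises mature myelin, was at 18.4, 17.9, 17.6 and 17.8 FPKM at 2 weeks and 2.41, 5.96 and 3.33 at 10 weeks (-2.01 as deposited and -1.63 scaled). Of the list 13 of 15 fell, and S100b, a calcium-binding protein of Schwann cells, chondrocytes and fat, rose and was at 15.2, 21.0, 17.9 and 14.6 FPKM at 2 weeks and 58.8, 57.3 and 70.3 at 10 weeks (1.80 as deposited and 2.24 scaled). In melanocytes 8 of 13 genes fell. Dct, an enzyme of melanin synthesis, was at 76.1, 84.4, 64.7 and 78.4 FPKM at 2 weeks and 13.4, 18.6 and 16.3 at 10 weeks (-2.17 as deposited and -1.74 scaled). Tyrp1, its neighbour in the pathway, was at 47.3, 54.2, 40.0 and 47.3 FPKM at 2 weeks and 5.50, 13.4 and 7.59 at 10 weeks (-2.37 as deposited and -1.94 scaled). Mlana, a melanosome protein, did not pass on both scales (53.2 ± 9.96 FPKM at 2 weeks and 37.3 ± 13.8 at 10 weeks, -0.54 as deposited and -0.09 scaled). Fat cell genes moved up: 8 of 15 rose and none fell, or 5 rose without replicate 4 of 2 weeks. Adipoq, adiponectin, was at 7.89, 6.57, 7.10 and 6.44 FPKM at 2 weeks and 15.9, 24.0 and 22.1 at 10 weeks (1.42 as deposited and 1.84 scaled). Retn, resistin, was at 1.19, 2.11, 0.859 and 1.88 FPKM at 2 weeks and 4.31, 9.73 and 13.7 at 10 weeks (1.94 as deposited and 2.28 scaled).

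Red cell transcripts were much higher at 10 weeks. Hba-a1, a gene of adult alpha globin, was at 172, 169, 193 and 168 FPKM at 2 weeks and 1958, 2729.8 and 2885 at 10 weeks. Hba-a1 had a log2 change of 3.82 (SE 0.16, adjusted p = 4.2e-07) as deposited and 4.27 scaled. Its near-identical copy Hba-a2 was at 164, 159, 183 and 158 FPKM at 2 weeks and 1870.4, 2615 and 2735 at 10 weeks, and reads of the pair cannot be fully separated. Hbb-b1, adult beta globin, was at 139, 131, 151 and 127 FPKM at 2 weeks and 846, 1556 and 1096 at 10 weeks (3.04 as deposited and 3.49 scaled). Alas2, the first enzyme of haem synthesis in red cells, went from 3.61 to 11.3 FPKM (1.38 as deposited and 1.77 scaled). Slc4a1, the anion exchanger of the red cell membrane, fell instead from 3.26 to 0.193 (-1.84 as deposited and -1.63 scaled). The part of blood content in other results was not tested. The red cell markers Rhag and Klf1 stayed under 1 FPKM on average at both ages.

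Immune genes rose in part. Of 24 genes of monocytes and macrophages 11 rose (45.8%) and 3 fell (12.5%), beside 17.1% and 32.8% of all genes tested. Cd209d, a C-type lectin, was at 11.5, 13.6, 10.3 and 9.94 FPKM at 2 weeks and 84.1, 39.5 and 48.9 at 10 weeks (2.18 as deposited and 2.61 scaled). Lyz1, a lysozyme, was at 20.7, 24.7, 21.4 and 18.1 FPKM at 2 weeks and 116, 58.7 and 70.6 at 10 weeks (1.84 as deposited and 2.28 scaled). The complement genes C1qa, C1qb and C1qc, made by tissue macrophages, went from 53.1 to 123, 59.6 to 106 and 58.0 to 131 FPKM. Mertk, a receptor for dying cells, was at 8.78, 7.59, 7.49 and 9.18 FPKM at 2 weeks and 0.851, 2.09 and 0.935 at 10 weeks and fell (-2.05 as deposited and -1.74 scaled), and the general marker Csf1r did not pass on both scales (-0.30 as deposited and 0.13 scaled). Rises and falls thus stand side by side within the list.

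Of 15 tested genes of dendritic and Langerhans cells, 6 rose (40%) and 3 fell (20%), beside 17.1% and 32.8% of all genes tested. H2-Aa, a chain of MHC class II, went from 171 to 270.0 FPKM (0.65 as deposited and 1.10 scaled) and H2-Eb1 from 80.3 to 113 (0.48 as deposited and 0.93 scaled). Cd74, the invariant chain, was at 329, 355, 334 and 274 FPKM at 2 weeks and 363, 349 and 427 at 10 weeks and passed only scaled (0.23 as deposited and 0.69 scaled). Ciita, the transactivator of these genes, was at 2.45, 1.98, 2.05 and 2.31 FPKM at 2 weeks and 0.270, 0.658 and 0.434 at 10 weeks and fell (-1.14 as deposited and -0.93 scaled). Among 22 lymphoid genes 7 rose (31.8%) and 1 fell (4.55%), or 3 fell without replicate 1 of 10 weeks. Cd3d, a chain of the T cell receptor complex, was at 1.80, 2.24, 1.27 and 2.09 FPKM at 2 weeks and 6.93, 5.16 and 6.03 at 10 weeks (1.31 as deposited and 1.66 scaled). Lat, an adaptor below it, was at 2.95, 2.45, 1.67 and 2.68 FPKM at 2 weeks and 10.01, 7.07 and 10.2 at 10 weeks (1.55 as deposited and 1.92 scaled). Il2rb, a receptor chain for interleukins, was at 3.35, 2.54, 2.58 and 3.68 FPKM at 2 weeks and 0.681, 1.33 and 0.788 at 10 weeks (-1.07 as deposited and -0.80 scaled). Of 18 B cell genes 4 reached the level for testing, and Ms4a1 was under 1 FPKM on average at both ages.

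Of 13 genes of mast cells and basophils 3 rose (23.1%) and 2 fell (15.4%), beside 17.1% and 32.8% of all genes tested. Cma1, the chymase, was at 135, 132, 137 and 141 FPKM at 2 weeks and 143, 128 and 175 at 10 weeks, overlapping between ages and called only scaled (0.11 as deposited and 0.56 scaled). Mcpt4 and Cpa3, other granule proteases, did not pass on both scales either. Fcer1a, a chain of the IgE receptor, was at 0.0949, 0.0714, 0.174 and 0.0839 FPKM at 2 weeks and 5.98, 1.98 and 1.94 at 10 weeks and rose (1.83 as deposited and 2.04 scaled). Hdc, which makes histamine, was at 8.04, 9.39, 8.85 and 10.9 FPKM at 2 weeks and 3.13, 4.72 and 3.22 at 10 weeks and fell (-1.14 as deposited and -0.77 scaled). Of 10 genes listed for neutrophils 5 rose (50%) and 3 fell (30%), the latter near the 32.8% of all genes tested. Cxcr2, the chemokine receptor, was at 1.21, 0.995, 1.02 and 0.925 FPKM at 2 weeks and 4.80, 5.74 and 6.55 at 10 weeks (1.71 as deposited and 2.03 scaled). The falls were all stefin genes, inhibitors of cathepsins that keratinocytes also make: Stfa1 was at 118, 135, 155 and 153 FPKM at 2 weeks and 30.4, 2.54 and 2.30 at 10 weeks (-4.29 as deposited and -3.89 scaled) and BC100530 went from 293 to 23.1 FPKM (-4.85 as deposited and -4.44 scaled). The third, Stfa2, was lost on the scaled values without replicate 3 of 10 weeks. The granule genes Mpo, Elane and Ltf were under 1 FPKM on average at both ages.

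Among 18 antimicrobial peptides and alarmins 9 rose (50%) and 2 fell (11.1%), beside 17.1% and 32.8% of all genes tested. Defb14, a beta-defensin of epithelia, was at 1.22, 1.84, 0 and 1.08 FPKM at 2 weeks and 51.4, 20.5 and 13.0 at 10 weeks. Defb14 had a log2 change of 3.72 (SE 0.46, adjusted p = 1.4e-04) as deposited and 4.05 scaled. Slpi, an inhibitor of leukocyte proteases, was at 1.74, 1.66, 2.02 and 1.33 FPKM at 2 weeks and 20.6, 5.05 and 13.1 at 10 weeks (2.19 as deposited and 2.55 scaled). Il33, an alarmin of the IL-1 family, went from 3.08 to 16.5 FPKM (2.0995 as deposited and 2.49 scaled). S100a7a, psoriasin, was at 17.1, 15.8, 24.4 and 19.4 FPKM at 2 weeks and 0.113, 0 and 0.343 at 10 weeks and fell (-4.12 as deposited and -3.88 scaled). Replicate 1 of 10 weeks was the highest library for Defb14 and Slpi. Of 18 complement and acute phase genes 9 rose (50%) and 3 fell (16.7%). Apod, a lipid carrier, was at 63.6, 67.4, 61.1 and 62.3 FPKM at 2 weeks and 431, 407 and 459 at 10 weeks. Apod had a log2 change of 2.75 (SE 0.10, adjusted p = 1.9e-07) as deposited and 3.20 scaled. Orm1 and Orm2, the orosomucoids, went from 49.5 to 147 and 4.44 to 23.2 FPKM. Interferon response genes went both ways: 7 of 34 rose (20.6% beside 17.1% of all genes tested) and 3 fell, with Ifit3 at 2.001, 2.17, 2.999 and 1.70 FPKM at 2 weeks and 5.83, 6.92 and 5.63 at 10 weeks (1.16 as deposited and 1.51 scaled) and Irf8 at 3.86, 4.31, 3.50 and 3.30 FPKM at 2 weeks and 1.31, 1.20 and 1.27 at 10 weeks (-1.06 as deposited and -0.76 scaled).

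Immediate-early genes, which cells switch on within minutes of a stimulus, were lower or did not pass. Of 24 tested 12 fell and none rose (median -0.96 as deposited and -0.53 scaled). Egr3 was at 24.9, 22.2, 27.1 and 28.7 FPKM at 2 weeks and 1.151, 4.03 and 0.507 at 10 weeks. Egr3 had a log2 change of -3.39 (SE 0.34, adjusted p = 4.5e-05) as deposited and -3.08 scaled. Jun was at 43.6, 39.3, 35.2 and 37.0 FPKM at 2 weeks and 7.83, 12.05 and 6.59 at 10 weeks (-2.05 as deposited and -1.63 scaled). Nr4a1, a nuclear receptor of early responses, was at 16.8, 14.1, 16.4 and 18.99 FPKM at 2 weeks and 4.54, 3.74 and 2.49 at 10 weeks (-1.96 as deposited and -1.57 scaled). Fos was at 15.6, 11.9, 15.6 and 13.4 FPKM at 2 weeks and 7.74, 7.34 and 1.14 at 10 weeks. Its fall of 1.48 as deposited was 0.82 without replicate 3 of 10 weeks, and its call was lost on the scaled values when any library of 2 weeks was left out. Socs3, the gene studied in the series and itself induced by STAT3, fell in these wild-type ears from 10.2 to 3.20 FPKM (-1.46 as deposited and -1.10 scaled).

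The circadian clock genes differed between the ages in opposite directions. The core clock is a loop in which BMAL1 (Arntl) and CLOCK bind E-boxes and drive the Per, Cry and Nr1d genes, whose products shut the loop down again. Its output runs through D-boxes, which DBP, TEF and HLF activate and NFIL3 represses, and through ROR elements, which the NR1D proteins repress. Of 17 tested clock genes 7 rose (41.2%) and 3 fell (17.6%), beside 17.1% and 32.8% of all genes tested. The median was -0.07 as deposited and 0.35 scaled. The activators of the D-box all rose. Dbp was at 6.81, 7.14, 7.39 and 9.38 FPKM at 2 weeks and 41.7, 53.8 and 54.2 at 10 weeks. Dbp had a log2 change of 2.55 (SE 0.14, adjusted p = 2.1e-06) as deposited and 2.98 scaled. Hlf was at 7.60, 7.44, 7.18 and 8.81 FPKM at 2 weeks and 19.02, 28.5 and 14.2 at 10 weeks (1.25 as deposited and 1.67 scaled). Tef was at 27.4, 27.8, 27.7 and 30.5 FPKM at 2 weeks and 41.8, 59.6 and 45.0 at 10 weeks (0.75 as deposited and 1.19 scaled). Nfil3, the repressor of the same sites, was at 19.4, 19.1, 20.1 and 18.6 FPKM at 2 weeks and 2.38, 1.66 and 2.03 at 10 weeks. Nfil3 had a log2 change of -2.75 (SE 0.12, adjusted p = 4.1e-07) as deposited and -2.39 scaled. All 4 genes were apart between the ages, the 3 activators above and the repressor below.

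Nr1d1, a haem-binding repressor, was at 13.3, 19.2, 15.8 and 14.1 FPKM at 2 weeks and 34.3, 60.4 and 40.7 at 10 weeks (1.45 as deposited and 1.88 scaled), and its relative Nr1d2 at 9.04, 10.4, 9.26 and 9.99 FPKM at 2 weeks and 24.8, 31.1 and 18.0 at 10 weeks (1.23 as deposited and 1.66 scaled). Per3 was at 5.81, 4.70, 4.29 and 5.46 FPKM at 2 weeks and 9.05, 13.4 and 8.91 at 10 weeks (0.90 as deposited and 1.30 scaled). Per1 was at 22.3, 26.2, 15.97 and 20.2 FPKM at 2 weeks and 10.1, 11.96 and 9.47 at 10 weeks and fell (-0.93 as deposited and -0.51 scaled), a call lost on the scaled values without replicate 1 of 10 weeks and with scaling and the length trend removed together (-0.10, adjusted p = 0.59). Cry1 was at 9.63, 9.35, 10.3 and 9.68 FPKM at 2 weeks and 5.37, 4.13 and 3.87 at 10 weeks and fell (-0.99 as deposited and -0.59 scaled). The seventh rise was Bhlhe40, a repressor that binds E-boxes, from 13.2 to 18.1 FPKM (0.41 as deposited and 0.84 scaled), lost on 1 scale without replicate 2 or 4 of 2 weeks and at 0.27 as deposited without replicate 2 of 10 weeks. Arntl (9.60 ± 0.691 FPKM at 2 weeks and 7.40 ± 2.39 at 10 weeks, -0.38 as deposited and 0.02 scaled), Clock (3.37 ± 0.243 FPKM at 2 weeks and 4.70 ± 1.20 at 10 weeks, 0.36 as deposited and 0.72 scaled) and Per2 (3.17 ± 0.164 FPKM at 2 weeks and 2.33 ± 0.458 at 10 weeks, -0.33 as deposited and -0.00 scaled) did not pass on both scales. The labels do not give the hour of the day at which the ears were taken.

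**Figure D5:**
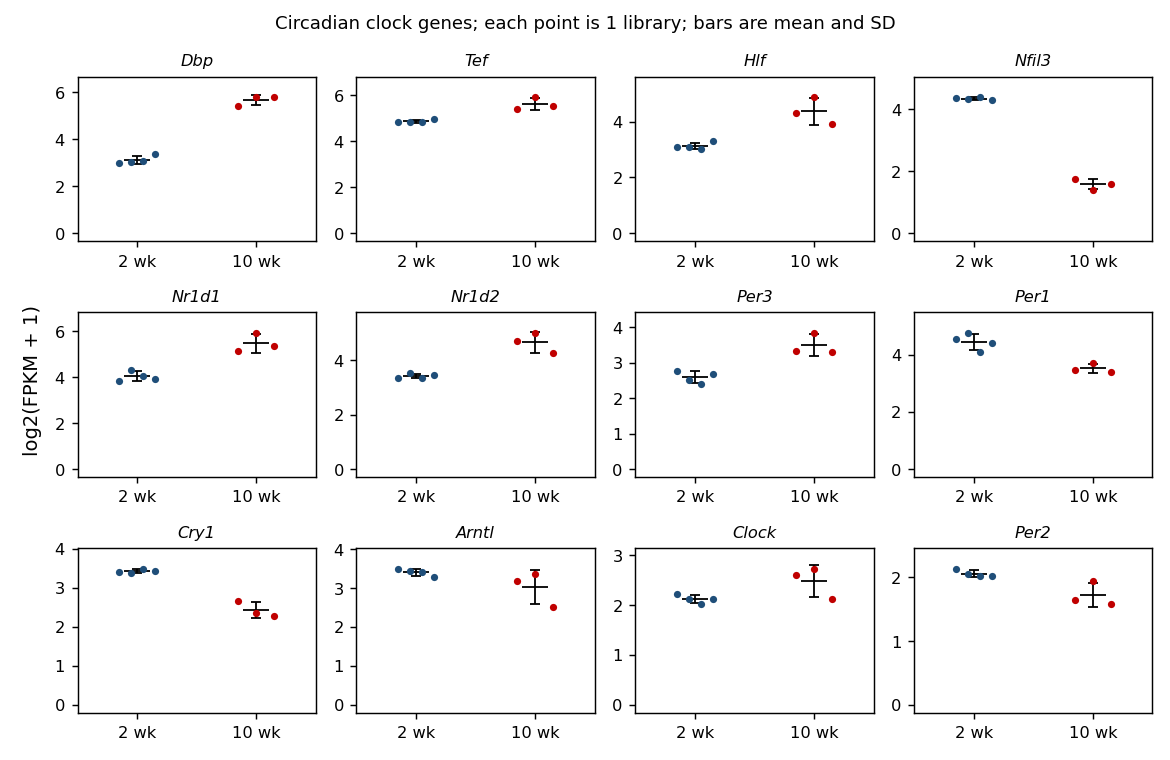
log2(FPKM + 1) of 12 circadian clock genes (vertical axes from 0) in the 4 libraries of 2 weeks and the 3 of 10 weeks, with mean and SD. Dbp, Tef, Hlf, Nr1d1, Nr1d2 and Per3 are higher in every library of 10 weeks and Nfil3, Per1 and Cry1 lower, while the points of Arntl and Clock overlap.

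The promoter windows of clock genes that moved are shown to set the direction of each beside the element it carries. RefSeq promoters were matched for 14 of the 17 genes (19 starts), and the 250 bases before each start were searched on both strands for the E-box CACGTG, the D-box TTATGTAA and the ROR element TAGGTCA. No match overlapped another. The E-box was found at 5 of the 19 starts, of Per1, Cry1, Tef and Bhlhe41, and at 6.02% of 32851 promoters of all genes. The D-box was found at 1 of 19, with 2 copies in Per3, and at 0.819% of all promoters, and the ROR element at 1 of 19, in Nfil3, and at 2.23% of all. The windows are Per3 (chr4:151044666-151044915, minus strand), Nfil3 (chr13:52981040-52981289, minus strand), Tef (chr15:81811164-81811413, plus strand, the second of 2 starts), Per1 (chr11:69098699-69098948, plus strand, the first of 2 starts) and Cry1 (chr10:85185055-85185304, minus strand), in GRCm38.p6, 5′ to 3′ towards the start, with matches in capitals.
Per3: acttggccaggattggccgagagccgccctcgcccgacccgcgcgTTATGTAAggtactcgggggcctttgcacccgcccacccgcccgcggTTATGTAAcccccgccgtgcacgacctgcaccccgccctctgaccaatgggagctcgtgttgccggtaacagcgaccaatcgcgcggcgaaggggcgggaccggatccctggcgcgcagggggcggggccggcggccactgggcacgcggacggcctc
Nfil3: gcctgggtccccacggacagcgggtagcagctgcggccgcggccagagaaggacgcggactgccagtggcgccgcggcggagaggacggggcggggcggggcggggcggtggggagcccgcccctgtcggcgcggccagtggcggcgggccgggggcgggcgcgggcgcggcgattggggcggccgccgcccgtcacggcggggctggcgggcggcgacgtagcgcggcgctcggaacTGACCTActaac
Tef: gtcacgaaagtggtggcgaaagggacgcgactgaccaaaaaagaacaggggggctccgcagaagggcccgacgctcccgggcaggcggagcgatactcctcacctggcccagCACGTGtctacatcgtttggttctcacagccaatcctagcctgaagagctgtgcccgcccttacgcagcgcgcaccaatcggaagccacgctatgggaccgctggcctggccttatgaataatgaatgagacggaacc
Per1: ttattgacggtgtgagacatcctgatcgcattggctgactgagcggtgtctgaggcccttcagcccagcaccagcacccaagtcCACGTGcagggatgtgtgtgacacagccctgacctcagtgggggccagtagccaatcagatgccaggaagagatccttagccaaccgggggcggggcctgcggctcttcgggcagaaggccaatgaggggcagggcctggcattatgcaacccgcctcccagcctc
Cry1: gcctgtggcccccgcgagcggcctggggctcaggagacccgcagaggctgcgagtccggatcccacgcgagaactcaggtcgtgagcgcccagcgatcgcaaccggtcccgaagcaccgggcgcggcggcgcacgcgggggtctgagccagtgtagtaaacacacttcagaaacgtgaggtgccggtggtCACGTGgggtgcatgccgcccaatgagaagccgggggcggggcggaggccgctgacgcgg
Per3, with the D-boxes, rose, as did the genes of the D-box activators. Nfil3, with the ROR element written here as its reverse complement, fell, beside rises of both NR1D repressor genes. E-boxes stand before Tef, which rose, and before Per1 and Cry1, which fell. Whether any matched element took part in these changes was not tested. No match in the windows of Dbp, Nr1d1, Nr1d2 and Hlf says only that these letters are not in those bases.

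Genes of the mitochondrial respiratory chain encoded in the nucleus rose: 31 of 40 tested, with a median of 1.02 as deposited and 1.47 scaled. The largest rises were isoforms of muscle. Cox8b was at 14.2, 11.8, 10.8 and 14.7 FPKM at 2 weeks and 88.3, 77.7 and 148 at 10 weeks (2.88 as deposited and 3.32 scaled), Cox6a2 at 17.5, 16.1, 10.8 and 9.32 FPKM at 2 weeks and 55.9, 74.3 and 107 at 10 weeks (2.46 as deposited and 2.90 scaled) and Cox7a1 at 17.3, 17.0, 11.02 and 10.6 FPKM at 2 weeks and 52.0, 69.8 and 93.4 at 10 weeks (2.27 as deposited and 2.71 scaled), all subunits of cytochrome oxidase. The ages were apart in each, and replicate 3 was the highest library of 10 weeks. Subunits found in all tissues rose too, such as Ndufa4 from 222 to 772 FPKM (1.76 as deposited and 2.21 scaled) and Cox4i1 from 303 to 637 (1.05 as deposited and 1.501 scaled), while the catalytic subunits Ndufs1 and Sdha did not pass on both scales. Atp5a1, a large subunit of ATP synthase, fell (-0.79 as deposited and -0.34 scaled), a call lost on 1 scale when any library but replicate 2 of 10 weeks was left out. Of 77 ribosomal protein genes 77 were called higher on the scaled values and 75 on both scales, with a median of 1.29 as deposited and 1.746 scaled. Members of both lists have short transcripts, of median lengths 581 and 632 bases. With scaling and the length trend removed together, 33 and 76 genes were called higher, with medians of 1.17 and 1.48.

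Other genes among the 12 largest rises under the naming rule belong to none of these groups. Myoc, myocilin, a secreted protein of connective tissue and of the eye, was at 15.7, 14.8, 12.9 and 13.2 FPKM at 2 weeks and 311, 605 and 535 at 10 weeks. Myoc had a log2 change of 4.95 (SE 0.21, adjusted p = 4.1e-07) as deposited and 5.39 scaled. Krt24, a type I keratin of differentiated epithelia, was at 1.58, 1.62, 1.45 and 1.39 FPKM at 2 weeks and 73.6, 35.1 and 17.2 at 10 weeks (3.87 as deposited and 4.23 scaled). Akr1c18, an enzyme that inactivates progesterone, was at 0.484, 1.21, 1.55 and 0.855 FPKM at 2 weeks and 127, 36.0 and 5.96 at 10 weeks (4.01 as deposited and 4.34 scaled). Both were highest in replicate 1 of 10 weeks and lowest in replicate 3, and still above all libraries of 2 weeks. Aqp2, a water channel best known from the kidney, was at 0, 0.242, 0.118 and 0.0569 FPKM at 2 weeks and 8.86, 12.1 and 21.8 at 10 weeks (3.70 as deposited and 3.96 scaled). Guca2a, guanylin, was at 1.10, 3.30, 2.21 and 3.10 FPKM at 2 weeks and 73.8, 31.4 and 28.5 at 10 weeks (3.65 as deposited and 4.03 scaled). Lars2, the mitochondrial leucyl-tRNA synthetase, was at 44.4, 60.4, 53.7 and 58.1 FPKM at 2 weeks and 1190.2, 904 and 256 at 10 weeks (3.57 as deposited and 4.02 scaled), so the libraries of 10 weeks were spread widely and still lay above those of 2 weeks.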

How the data were processed

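RNA of mouse ears was sequenced by the submitters with a kit that does not mark strand (single-end, 50 bases). Per the submitters' processing notes, reads were mapped with TopHat2 2.1.0 to mm9 and the authors deposited FPKM per gene from Cufflinks, with no version or annotation named there. FPKM files carry no read counts, so depth is not known beyond low values, which put relative depth at 1 to 1.33 over the 7 libraries, and no counting intervals are given. Read-length-dependent loss of short transcripts and multimapped reads can shift such values. The 4 libraries of 2 weeks and 3 of 10 weeks were grouped by their titles. Genes that reached 1 FPKM in 3 or more libraries were fitted on log2(FPKM + 1) with limma 3.58.1 (R 4.3.3; moderated statistics with an intensity trend, two-sided, Benjamini-Hochberg adjustment over all genes tested, threshold 0.05), as deposited and after median-of-ratios scaling. On simulated data of this size, 200 of 13447 genes were changed, all picked from genes of higher level. Of those changed by 1 log2 unit 67% were recovered and of those changed by 2 98%, with 10 false calls. The simulation held far fewer changed genes than were called here and no shift between libraries, so these rates may not carry over.

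The 37 gene lists and their members were chosen with earlier results of these data known, and lists are described by counts and medians only. Values are given for the 12 largest rises and falls and for the 3 largest called changes of each list with no overlap between ages, passing over unnamed models and sex-linked genes, and for 16 genes always named. The other genes given with values were chosen after their values were seen. Transcript lengths, for 99.2% of the genes tested, were medians over each gene's GENCODE transcripts. Promoter sequences came from RefSeq tables (GRCm38.p6). Lengths and promoters were used by gene symbol only, since the files' build is mm9. Replicate numbers did not pair the samples (correlations of same-numbered deviations -0.01, -0.04 and -0.04). The alternatives, in the closing section, were scaling, pseudocount, filters, a fold threshold, a fit of all 22 libraries, quality weights, replicate number, subtraction of the receptor level, transcript length and leaving out each library. The values of some single list members are not reported here.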

Additional observations from a re-analysis of the deposited data

Results flagged for a closer look

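Among 132 genes examined within the 4 libraries of 2 weeks, 8 had 1 library apart from the other 3 by more than Dixon's 95% critical value for 4 samples, and chance flags about 1 in 20 groups. Krtap15, a hair shaft protein, was at 389 FPKM in replicate 3, against 243 to 265 in the others, and Lce1l, a cornified envelope protein, at 68.3 against 44.9 to 45.9. In the same library Acer1, an epidermal ceramidase, was at 40.4 against 35.5 to 35.9 and Hba-a1, alpha globin, at 193 against 168 to 172. In replicate 2 Abca12, a lipid transporter, was at 4.76 against 6.05 to 6.31 and Ckmt2, a muscle creatine kinase, at 3.39 against 1.28 to 1.45. In replicate 4 Cyp2g1, a cytochrome P450, was at 124 against 148 to 149.8, and Myl2, a muscle light chain, at 0.161 with the others listed at 0. In each of the 8 genes the libraries of 10 weeks lay outside the range of all 4. This was a condition for naming these genes, so it says nothing on the weight of the library that stood apart.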

How the results depend on the processing

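Of 126 named genes that passed on both scales, 117 kept direction and call in every alternative that tested them, which was 24 or 25 for each gene, since the filter at 5 FPKM left some out. Reversals were Irs1 (0.30), Mki67 (0.23), Krt5 (0.025) and Myh3 (0.12) with scaling and the length trend removed together, Myh3 (0.11, in a range from -1.28 over left-out libraries) scaled without replicate 1 of 10 weeks, and Cma1 with the length trend removed (-0.0048) or without replicate 3 of 10 weeks (-0.011, in a range up to 0.77 over left-out libraries). The 9042 calls became 3481 at a log2 change of at least 1 and 5984 with all 22 libraries in the fit. The 2304 higher genes became 4349 scaled, 4504 scaled with the length trend removed, 3461 with no filter, 763 at a log2 change of at least 1 and 1361 with all 22 libraries. The 6738 lower genes became 4414 scaled, 4070 scaled with the length trend removed, 3486 scaled with the replicate block and 2718 at a log2 change of at least 1. Leaving out each library gave 8083 to 10065 calls as deposited, with 2018 to 2637 higher and 6037 to 7586 lower genes. Scaled, it gave 3795 to 4807 higher and 3902 to 4750 lower genes, with most calls without replicate 2 of 10 weeks. The replicate block left 7643 calls (6900 scaled), and same-numbered libraries shared only a number. The cause was not tested, beyond what scaling, thresholds and sample number set by construction. The length alternatives, the scaled replicate block and the scaled leave-outs of 2 weeks were chosen after seeing the data. FPKM without counts leaves the precision of low genes unknown, and 3 libraries at 10 weeks limit it further.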
